A study of Bos taurus with 15 samples.

Results

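Cells that shared a well with morulae held in a transwell insert were compared with cells that had no embryos, by RNA sequencing of 5 libraries each. These 10 libraries were all the libraries of the 2 conditions and belong to a study of 15. The other 5, in which the morulae lay on the cell layer, entered the model and are used below where the transwell response is set beside that under contact. Of the 19994 genes listed, the 12559 that reached 10 normalized counts in 5 or more of the 15 libraries were tested.

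The cells are labelled bovine endometrial epithelial cells and came from the luminal surface of the uterine horn of beef cows, on the side of the recent ovulation. Material from 4 uteri was pooled, so every library holds the same 4 animals, and the cells were used at passage 3. In the no contact group, morulae made in vitro and selected at day 5.5 were placed in groups of 15 ± 1 on a transwell, an insert with a porous membrane that keeps them off the 90% confluent layer. In the control group the same cells received no morulae. Every well of both groups, and of the contact group, carried a transwell and 150 µL of synthetic oviductal fluid with 5% fetal bovine serum, and was harvested after 48 h. The protocol gives 6 experiments with 2 to 4 wells per condition in each and does not tie a library to one of them. P-values therefore measure the spread between cultures of 1 cell pool, part of which may be technical, and not between cows.

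The early cow embryo signals to the uterus before it attaches. Its trophectoderm, the outer cell layer that begins to form around the blastocyst stage, secretes interferon tau, a type I interferon. Type I interferons bind the receptor chains IFNAR1 and IFNAR2, and the kinases JAK1 and TYK2 then activate transcription factors, STAT2 and IRF9 among them, that switch on antiviral genes in the nucleus. Embryo and cells in a transwell share medium without touching, so the comparison asks which genes of the cells differ when embryos are present at a distance.

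Reads assigned to genes ranged from 15507719 to 18618467 in the control libraries and from 12938091 to 19792557 in the no contact libraries; the contact libraries had 4195091 to 19268029. Values below are normalized counts, which are reads divided by a size factor per library and not by gene length, so levels are compared between libraries and not between genes. Values given for single libraries follow the order BEEC.24, BEEC.83, BEEC.84, BEEC.103 and BEEC.104 for the controls and 30, 89, 90, 109 and 110 for the no contact group, which are the numbers in their titles. Differences are no contact minus control on the scale log2(normalized count + 1), with their standard error, and a gene was called where limma's adjusted p was under 0.05. The first principal component held 46.63% of the variance and separated the groups, with control libraries between -33.78 and -28.26, no contact libraries between 1.15 and 8.50 and contact libraries between 19.5 and 30.81. No contact library 90 stood apart on the second component, at 32.58 against -8.87 to 12.23 for the other no contact libraries, and results are also given without it where that mattered. The median difference of all genes tested was -0.01 with the deposited scaling and -0.01 with TMM scaling.

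The marker genes went partly against the label. The keratins KRT8 and KRT18, filaments of simple epithelia, had 33592 ± 3718 and 8214 ± 1456 normalized counts in the control group (SD, n = 5), and the adherens junction cadherin CDH1 had 1270. However, EPCAM, an epithelial surface protein, had a mean of 0.51, CLDN7 had 0.52, GRHL2 and FOXA2 were listed at 0 in every control library, and the fibroblast genes COL1A1 and VIM had 102559 and 17303. The 15 epithelial markers summed to between 50920 and 67878 in the control libraries and between 50268 and 70694 in the no contact libraries. The 16 stromal markers summed to between 363416 and 387714 and between 317950 and 385162 in the same order. The 16 leukocyte and red cell markers summed to between 226 and 598 in the controls and between 210 and 425 with transwell morulae. Of the 22 embryo and trophoblast markers, TFAP2A and GATA2 had control means of 1899 and 1193, and these 2 genes, present without embryos, held nearly all of that list's summed level. The leukocyte gene PTPRC and the embryo genes POU5F1, SOX2 and NANOG had means of at most 0.35 in the control group and were listed at 0 in every no contact library. CD68, a macrophage gene, had 437 and 450 in control libraries 83 and 84 and 303 and 295 in no contact libraries 89 and 90, against 71.4 to 110 in the other 6 of the 10 libraries. Limma called 0 of the 37 markers tested, as did edgeR and DESeq2, while 1 marker was lower at an unadjusted p under 0.05. Of all genes tested limma called 1.59%, so 0 of 37 lies near that share. With runs of neighbouring library numbers, read from the titles, fitted as a block, 1 of the leukocyte and red cell markers was called lower. In bulk RNA, a change in the number of cells of a type and a change in RNA per cell cannot be told apart.

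Cells under transwell morulae showed a difference in 200 genes, 1.59% of those tested, of which 186 were higher (1.48%) and 14 lower (0.111%). The higher genes were led by antiviral effectors. ISG15, a ubiquitin-like antiviral protein (ENSBTAG00000014707), was higher by 7.64 ± 0.30 (adjusted p = 1.076e-10), and MX1, an antiviral GTPase (ENSBTAG00000030913), by 6.90 ± 0.13 (adjusted p = 2.344e-18). Of the 186, 98 were more than 2 times higher on this scale, 35 more than 8 times and 12 more than 64 times. Some of these genes, such as IFI44, GBP4 and PLAC8, were under 10 in every control and passed the filter only through libraries with embryos. The counts of large differences are therefore in part set by the filter. Only 1 of the 14 lower genes, TMEM107, was more than 2 times lower. All 5 no contact libraries lay above all 5 controls for 177 of the 186 genes, where 249 of all genes tested, 1.98%, had that order. All 5 lay below all 5 controls for 11 of the 14 lower genes, where 122 of all genes, 0.971%, did. Calls and order come from the same values, so the order is not separate support for the calls.

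**Figure D1:**
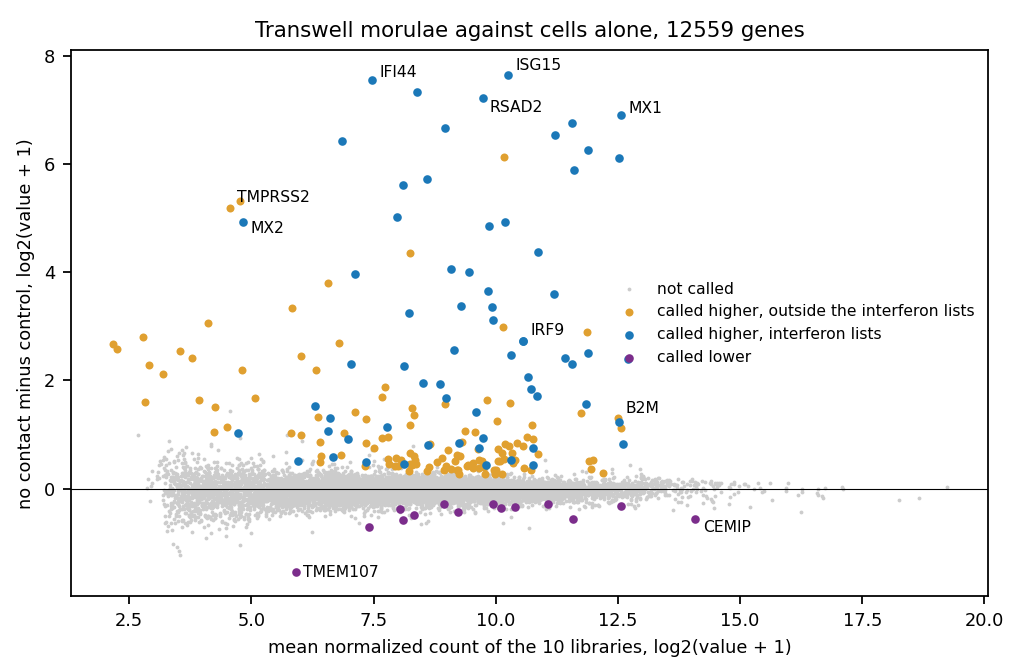
Difference between no contact and control (vertical axis, log2 of normalized count + 1) against the mean level of the 10 libraries (horizontal axis, log2 of normalized count + 1), 1 point per gene tested, coloured by call and by membership of the interferon lists. The called higher genes reach 7.64 (ISG15), whereas the called lower genes, in purple, lie close to the line except for TMEM107 at -1.53.

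By the numbers in their titles the libraries of the 2 groups form 3 runs, 24 to 30, 83 to 90 and above 100, each of which holds both groups. Within every one of these runs the no contact mean was above the control mean for 185 of the 186 higher genes and below it for 14 of the 14 lower genes. The genes were called from these same libraries, so this agreement is not separate support, and the share over all genes was not counted. Interferon genes made up much of the called set, with 66 of the 186 in lists of the interferon system, 14 in lists of antigen presentation, 75 with a symbol but in no list, and 26 with no symbol. These lists were chosen with earlier results of these data known, so their counts are a description and not separate support. Of the 35 genes more than 8 times higher, 28 were in the interferon lists. Across the 100 interferon system genes tested, 66 rose and 0 fell, where 1.48% of all genes tested rose and 0.111% fell. Their median difference was 1.11. The same median lay between 1.09 and 1.30 in the 3 runs. Counts by edgeR and DESeq2 were 65 and 70 higher with 0 lower by either tool, 1 gene was lower at an unadjusted p under 0.05, and without no contact library 90 limma called 65 higher.

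Of the ligands, only IFNT, the gene of interferon tau, was measured above the filter. It had 31.8, 33.9, 18.8, 57.9 and 71.4 normalized counts in the control libraries. In no contact libraries 30, 89, 90, 109 and 110 it had 27.6, 27.3, 36.5, 70.3 and 53.2. The groups overlapped, and the 4 libraries numbered above 100 held the 4 highest values. The difference was 0.06 ± 0.35, with a 95% interval of -0.68 to 0.79 (adjusted p = 0.981). IFNT is one of several near-identical copies in cattle, so reads from its relatives cannot be told apart here. IFNB1 and IFNE, 2 other type I interferons, had means of at most 1.1 in both groups, and 8 of the 11 ligand genes listed, among them IFNG, IFNW1 and IFNL3, were at 0 in every library. In all, 3511 of the 19994 genes listed were at 0 in every library. Whether such a gene was unexpressed or not counted cannot be told here.

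The receptor chains and kinases were not called. IFNAR1 had 1296, 1073, 1165, 1201 and 1190 normalized counts in the control libraries. It had 1069, 953, 618, 1093 and 970 in the no contact libraries, with library 90 well below the rest and the groups overlapping. The difference was -0.36 ± 0.12 (95% interval -0.61 to -0.11, adjusted p = 0.264). IFNAR2 differed by -0.11 ± 0.10, TYK2 by -0.14 ± 0.08 and JAK1 by -0.05 ± 0.08, and none was called. IFNGR1 and IFNGR2, chains of the interferon gamma receptor, differed by 0.01 and -0.02, and IFNLR1, of the interferon lambda receptor, differed by -0.48 ± 0.29 without a call. Limma called 0 of these 9 genes, edgeR and DESeq2 also called 0, and 1 (IFNAR1) was lower at an unadjusted p under 0.05. Over all genes tested limma called 1.59%, so 0 of 9 lies near that share.

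Of 12 transcription factors of the pathway 7 rose, IRF9 most of all. Its normalized counts were 411, 363, 396, 391 and 388 in the control libraries and 2387, 2794, 3133, 2443 and 2317 in the no contact libraries. Every no contact library lay above every control, and the difference was 2.73 ± 0.08, or 6.71 times by the group means (adjusted p = 9.213e-17). Its partner STAT2 rose from 758 ± 11.9 to 1024 ± 45.7 (0.43 ± 0.07, adjusted p = 0.00077). Others that rose were PML, which forms nuclear bodies, by 1.84 ± 0.09, BATF2 by 1.03 ± 0.20, NMI, a protein that binds STATs, by 0.84 ± 0.09, and IRF3, which is activated through the kinase TBK1 after nucleic acid sensing, by 0.52 ± 0.08. IRF1 went from 134 ± 28.7 to 220 ± 52.7, a difference of 0.71 ± 0.19 that was not called (adjusted p = 0.108), and its highest control, at 167, lay above its lowest no contact library, at 149. IRF1 was called by DESeq2 (adjusted p = 0.0101), with the runs as a block (2.59e-05) and without no contact library 110 (0.022), and over all alternatives its adjusted p ran from 2.59e-05 to 0.328. STAT3, which serves cytokines of the IL-6 family, differed by -0.02 ± 0.09. IRF7 was listed at 0 in all libraries, and whether it was unexpressed or not counted cannot be told here.

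Feedback inhibitors divided into a group that rose strongly and a group that was not called. USP18, which removes ISG15 from proteins and blocks the receptor chain IFNAR2, rose from 73.0 ± 8.16 to 2254 ± 228 normalized counts (4.93 ± 0.08, adjusted p = 9.297e-21). DHX58, a sensor-like protein that modulates RIG-I, rose from 81.3 ± 8.88 to 1322 ± 177 (adjusted p = 8.243e-17), and TRIM21, a cytosolic antibody receptor and ubiquitin ligase, from 192 to 739 (1.94 ± 0.08). SOCS1, the cytokine-induced inhibitor of JAK kinases, had 55.4, 50.4, 43.6, 44.6 and 30.7 in the control libraries and 51.9, 55.5, 101, 59.1 and 40.7 in the no contact libraries. Its groups overlapped, with library 90 highest, and the difference was 0.41 ± 0.20 (adjusted p = 0.615). SOCS3 differed by 0.16 ± 0.21, and the phosphatases PTPN1, PTPN2 and PTPN6 by 0.02, -0.02 and -0.09, so that 3 of 10 inhibitors tested rose and 0 fell.

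**Figure D2:**
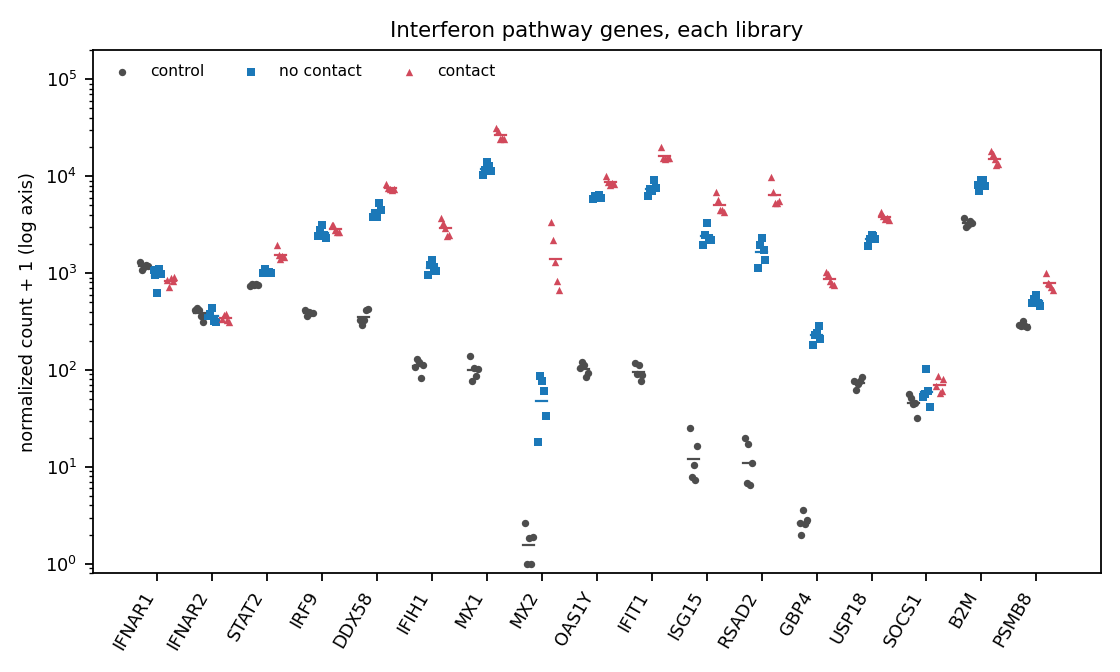
Normalized counts + 1 (log axis) of 17 genes of the interferon system and of antigen presentation, 1 symbol per library, for control (circles), no contact (squares) and contact (triangles); short lines are means of the log values, 5 libraries each. For MX1, OAS1Y, IFIT1 and ISG15 the no contact libraries lie far above the controls and below or near the contact libraries, while for MX2 they lie midway between the groups on this log axis and for IFNAR1, IFNAR2 and SOCS1 the symbols of the groups overlap.

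The MX and OAS enzymes rose in 6 of 6 genes tested, with a median difference of 5.75. MX1 had 138, 75.6, 104.3, 85.3 and 101 normalized counts in the control libraries, and 10194, 11498, 13968, 12842 and 11359 in the no contact libraries. The groups were far apart, and the no contact mean was 119 times the control mean. The related MX2 had 1.63, 0, 0.86, 0 and 0.90 in the controls and 17.0, 85.4, 76.1, 59.1 and 32.4 in the no contact libraries, a difference of 4.93 ± 0.50 (adjusted p = 8.443e-06). The oligoadenylate synthetases, which make a second messenger on viral RNA, rose together, with OAS1Y from 102 ± 14.6 to 6078 ± 256 (5.89 ± 0.08), OAS1X from 50.4 to 4724 (6.53 ± 0.10) and OAS2 from 10.2 to 535 (5.61 ± 0.14). Because OAS1X and OAS1Y are close copies, how their reads were divided is uncertain.

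Of 13 IFIT and IFI genes, 11 rose and 0 fell, with a median of 3.12. IFIT1, which binds foreign RNA caps, rose from 96.6 ± 17.8 to 7449 ± 1044 (6.26 ± 0.12). Its relatives IFIT2, IFIT3 and IFIT5 rose by 3.97 ± 0.24, 2.30 ± 0.29 and 2.31 ± 0.07. IFI6 and IFI27, small membrane proteins of a shared family, rose from 56.0 to 6003 and from 169 to 11618. IFI44 was barely detected in the controls, at 2.44, 0, 0, 0.78 and 2.71 in order of library, and had 280 to 437 in the no contact libraries. IFITM2 and IFITM3, membrane proteins that block viral entry, rose by 3.12 ± 0.12 and 2.40 ± 0.09. IFI30, a lysosomal thiol reductase of antigen processing, had 868 and 977 and was not called.

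ISG15 and all 5 enzymes of its conjugation listed here rose. ISG15 had 24.4, 6.78, 9.41, 6.26 and 15.4 normalized counts in the control libraries and 1944, 2453, 3262, 2293 and 2179 in the no contact libraries, with no overlap. UBA7, its activating enzyme, rose from 169 ± 13.3 to 3541 ± 564 (4.37 ± 0.11), and UBE2L6, its conjugating enzyme, from 55.7 to 138 (1.30 ± 0.13). The ligases HERC5 and HERC6 rose by 1.68 ± 0.11 and 0.83 ± 0.08. TRIM25, a ligase that also acts on RIG-I, rose by 0.93 ± 0.16 (adjusted p = 0.00161), although no contact library 90 had 657 against 1131 to 1358 in the other no contact libraries.

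Among the remaining antiviral effectors 18 of 19 rose, with a median of 1.71. RSAD2, or viperin, which makes a chain-terminating nucleotide, rose from 11.2 ± 6.03 to 1685 ± 465 (7.21 ± 0.32), and CMPK2, a nucleotide kinase, from 55.2 to 538 (3.25 ± 0.15). PLAC8 (ENSBTAG00000031750) rose from 3.37 to 661, XAF1, a factor that promotes cell death, from 13.7 to 762, and RTP4 from 14.7 to 491. EIF2AK2, the kinase PKR that halts translation on double-stranded RNA, rose from 1129 to 6417, and ADAR, which edits such RNA, from 857 to 2824. The exonuclease gene ISG20 was the one that was not called, with a difference of -0.05 ± 0.21. TREX1 and SLFN11 rose by 0.91 ± 0.21 and 0.59 ± 0.14, calls that 6 of 25 alternatives each lost.

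Several sensors of nucleic acid rose, while the adaptors and kinase named here were not called. The RNA helicases DDX58, or RIG-I, and IFIH1, or MDA5, rose from 358 ± 60.1 to 4305 ± 611 (3.59 ± 0.10) and from 110 ± 17.6 to 1143 ± 152 (3.38 ± 0.13). ZBP1, a sensor of Z-form nucleic acid, rose from 9.58 to 986 (6.67 ± 0.26), the DNA sensor CGAS from 39.2 to 117 (1.53 ± 0.16) and the endosomal receptor TLR3 from 235 to 322 (0.45 ± 0.08). MAVS, the adaptor of the helicases, had 373 ± 27.2 and 338 ± 88.2, TMEM173, or STING, the adaptor of CGAS, had 139 and 146, and the kinase TBK1 had 394 and 417. In all, 5 of 11 rose and 0 fell.

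The antiviral PARP enzymes rose in 6 of 7 genes. PARP9 and its partner ligase DTX3L rose from 134 to 1695 and from 171 to 1770, PARP14 from 396 to 2631, PARP12 from 389 to 2167 and PARP10 from 624 to 2624. PARP11 had 443 and 430 and was not called. The guanylate-binding proteins GBP1 and GBP4, GTPases that attack pathogen membranes, rose from 94.9 ± 12.1 to 459 ± 38.4 and from 1.71 ± 0.57 to 229 ± 39.3, and GBP5 was listed at 0 in every control and had at most 1.71 in a no contact library. Of 7 TRIM ligases tested 5 rose, among them TRIM34 from 149 to 577 (1.94 ± 0.09) and TRIM38 from 284 to 497 (0.80 ± 0.08). TRIM14 rose by 0.51 ± 0.13 (adjusted p = 0.0467), a call that 16 of 25 alternatives lost.

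Of 13 genes of MHC class I and peptide loading 9 rose and 0 fell, with a median of 0.61. B2M, the light chain shared by class I molecules, had 3731, 3011, 3140, 3463 and 3261 normalized counts in the control libraries. It had 8060, 7029, 9126, 9035 and 7900 in the no contact libraries. The groups did not overlap, and the difference was 1.31 ± 0.09 (adjusted p = 1.339e-09). Class I heavy chain genes also rose, BOLA from 904 to 1564 and the non-classical BOLA-NC1 from 134 to 227, although reads of such similar genes may be divided uncertainly. The peptidases ERAP1 and ERAP2, which trim peptides, rose by 0.42 ± 0.09 and 0.61 ± 0.09, and the peptide transporter gene TAP1 by 0.61 ± 0.14, a call lost in 7 of 25 alternatives. CALR, CANX and PDIA3, general chaperones of the endoplasmic reticulum, differed by -0.04, 0.00 and -0.06.

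Of 7 immunoproteasome genes 4 rose, with a median of 0.82. PSMB8, a catalytic subunit of the immunoproteasome, rose from 291 ± 17.8 to 514 ± 57.0 (0.82 ± 0.10, adjusted p = 5.026e-06), and the activator subunits PSME1 and PSME2 rose by 0.82 ± 0.08 and 0.87 ± 0.11. PSMB9, the neighbouring catalytic subunit, had 58.6, 53.3, 62.4, 32.9 and 22.6 in the control libraries and 78.7, 109, 111, 55.8 and 61.5 in the no contact libraries. Its groups overlapped, with lower values in libraries above 100 of both groups, and the difference of 0.88 ± 0.26 was not called (adjusted p = 0.155), whereas with the runs as a block it was (0.000208). Over the alternatives its adjusted p ran from 0.000208 to 0.416. Of 16 constitutive proteasome genes 1 rose, PSMA2, and the list had a median of 0.12. Limma called 1.48% of all genes tested higher, and 1 of 16 in so short a list lies near that share. The difference between these lists was not tested.

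Of the 5 MHC class II genes tested limma called 0, as did edgeR and DESeq2, 1 was higher at an unadjusted p under 0.05, and 1 was called higher with the runs as a block. CIITA, the class II regulator, had 25.3 ± 7.95 and 20.6 ± 5.51 normalized counts, and CD74, the invariant chain, 62.9 and 66.0. Among 15 chemokine and cytokine genes 1 rose. It was TNFSF10, or TRAIL, a death ligand, with 28.5, 19.4, 29.1, 27.4 and 29.8 in the control libraries and 394, 590, 556, 792 and 539 in the no contact libraries (4.35 ± 0.14, adjusted p = 1.937e-15). The cytokine gene IL23A, which is not in that list, also rose, by 0.45 ± 0.11 (limma adjusted p = 0.0349), a call that 9 of 25 alternatives lost. CXCL8, the neutrophil chemokine, had 141 and 125, CXCL5 had 2371 ± 565 and 1794 ± 267, CXCL9 had 159 and 165, and CXCL10 and CXCL11 were listed at 0 in all libraries. Whether CXCL10 and CXCL11 were unexpressed or not counted cannot be told here. Limma called 0 of 15 inflammatory and acute phase genes, edgeR and DESeq2 also 0, 1 was lower at an unadjusted p under 0.05, and 1 was called lower with the runs as a block. As limma called 1.59% of all genes tested, 0 of 5 class II, 1 of 15 chemokine and cytokine and 0 of 15 inflammatory genes lie near that share. The NF-kB inhibitor gene NFKBIA had 891 ± 284 and 803 ± 238.

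Of 13 complement genes tested limma called 1, C2, which rose from 3438 ± 146 to 4430 ± 310 (0.36 ± 0.07), while edgeR and DESeq2 each called 2 higher and the fit with the runs as a block called 3. Limma called 1.48% of all genes tested higher, and 1 of 13 in so short a list lies near that share. C4A went from 1680 ± 189 to 2462 ± 494, a difference of 0.53 that was not called (adjusted p = 0.07), and C3 had 438941 and 391765. Among 15 cell death genes 3 rose, where 1.48% of all genes tested did. CASP4, an inflammatory caspase, rose by 0.84 ± 0.09, and CASP8, the initiator caspase below death receptors, by 0.51 ± 0.09. BAX and BAK1, which open the mitochondrial membrane in cell death, FAS, a death receptor, and MCL1, which opposes cell death, were not called, with differences between -0.04 and 0.10.

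Genes in the lists of uterine function were not called in either direction. PTGS2, the inducible cyclooxygenase of prostaglandin synthesis, had 790, 1309, 1381, 1260 and 1328 normalized counts in the control libraries and 610, 1233, 1369, 1147 and 1123 in the no contact libraries. The lowest library of each group was the one from the run 24 to 30, and the difference was -0.17 ± 0.22 (95% interval -0.65 to 0.31). PTGES, a prostaglandin E synthase, had 629, 623, 721, 307 and 316 in the controls and 623, 585, 667, 296 and 326 in the no contact libraries. Libraries above 100 were the low ones in both groups, and the difference was -0.04 ± 0.29. ESR1, an estrogen receptor, had 612 ± 41.1 and 588 ± 152 (-0.10 ± 0.15), OXTR, the oxytocin receptor, had means of 4.90 and 2.62 and was below the filter, and SPP1, or osteopontin, had 48131 ± 9766 and 51920 ± 13179. Of 14 prostaglandin, 15 steroid and receptivity and 15 histotroph genes, limma, edgeR and DESeq2 each called 0. Since limma called 1.59% of all genes tested, 0 in lists of this size lies near that share. At an unadjusted p under 0.05, 1 prostaglandin gene was lower and 2 histotroph genes were higher. Differences in the prostaglandin list ran from -1.23 to 0.17, so not all of its members lay as near to zero as PTGS2 and PTGES.

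**Figure D3:**
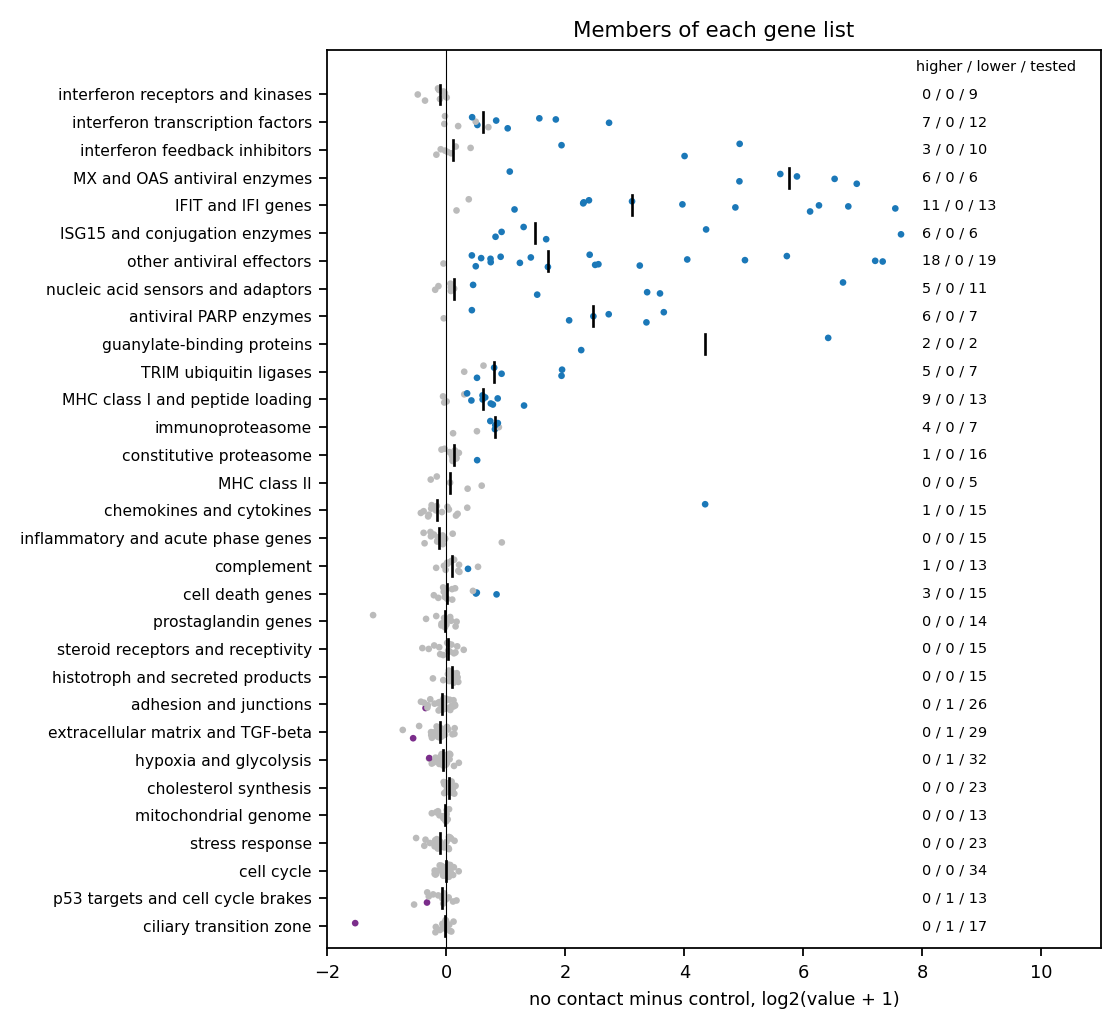
Difference between no contact and control (horizontal axis, log2 of normalized count + 1) for each tested member of 31 gene lists, 1 point per gene, blue where called higher, purple where called lower and grey where not called; black bars are list medians and the text at right gives the counts. Blue points are most frequent from the transcription factors down to the immunoproteasome, and below these nearly all points are grey and near the zero line.

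Most other programmes showed few or no calls. Over all genes tested limma called 1.59%, and counts of 0 or 1 in lists of this size lie near that share. Limma, edgeR and DESeq2 each called 0 of 34 cell cycle genes, 0 of 23 cholesterol synthesis genes, 0 of 23 stress response genes and 0 of 13 mitochondrial genes. At an unadjusted p under 0.05, 1 cell cycle gene and 3 stress response genes were lower. Medians of these lists lay between -0.11 and 0.05. TOP2A, a topoisomerase of dividing cells, had 416 and 392 normalized counts, and CDK1, the mitotic kinase, had 107 and 95.1. Among 32 hypoxia and glycolysis genes 1 fell, PDK2, and the hexokinase gene HK2 and the lactate dehydrogenase gene LDHA differed by -0.10 and -0.07. Of 26 adhesion, 29 matrix and TGF-beta and 13 p53 target genes, 1 each fell by limma, which were DSC2, CEMIP and CDKN1A. In the matrix and TGF-beta list edgeR called 2 lower, DESeq2 3 and the fit with the runs as a block 2, and in the p53 list that block called 3 lower.

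Of the 75 higher genes with a symbol in none of the lists, the 10 with the smallest p are named here. PNPT1, a mitochondrial RNA nuclease, rose from 621 ± 26.6 to 1887 ± 339 (1.58 ± 0.10), C7H19orf66, which the table describes as a repressor of dengue virus yield, from 180 to 462, and CMTR1, which methylates the mRNA cap, from 1105 to 1916. RNF114, a ubiquitin ligase, rose from 1204 to 2272 and SP140L, a nuclear body protein, from 75.0 to 203. FOXS1, a forkhead transcription factor, rose from 28.5 ± 4.95 to 193 ± 54.3 (2.68 ± 0.18), and GRINA, TRANK1 and SULT6B1 rose by 1.17 ± 0.09, 1.12 ± 0.09 and 2.18 ± 0.18. TMPRSS2, a serine protease of the cell surface, was listed at 0 in 4 controls and at 0.78 in library BEEC.103, and had 23.5, 43.5, 88.0, 42.4 and 26.6 in the no contact libraries. It rested on 1 control read against 268, a ratio of 267 with a 95% interval of 47.4 to 10570 that covers counting error only. TMPRSS2 passed the filter only through libraries with embryos, so the filter in part sets this ratio.

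Of the 26 higher genes without a symbol, those with the smallest p included 2 that the RefSeq table describes. ENSBTAG00000045588, described as bone marrow stromal antigen 2 or tetherin, a protein that holds budding virus at the cell surface, rose from 32.1 ± 7.52 to 2271 ± 174 normalized counts (6.13 ± 0.14, adjusted p = 3.956e-17). A second gene with that description had 0.36 and 51.8. ENSBTAG00000022489, described as the ubiquitin ligase RNF213, rose from 885 ± 58.0 to 6628 ± 1146 (2.89 ± 0.12). Genes described as guanylate-binding protein 1 and tripartite motif-containing protein 5 rose from 90.1 to 333 and from 8.72 to 45.3.

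The lower set was short and its differences were small apart from TMEM107 (ENSBTAG00000001702), a membrane protein of the ciliary transition zone, the gate at the base of the cilium. It had 79.8, 94.9, 89.8, 90.8 and 83.1 normalized counts in the control libraries and 26.0, 26.5, 24.6, 32.4 and 41.5 in the no contact libraries. The groups did not overlap, and the difference was -1.53 ± 0.19 (adjusted p = 1.246e-05). It was 1 of 17 transition zone genes tested, and the other 16, such as B9D1, TMEM231 and TCTN2, were not called, with differences between -0.18 and 0.12. SLC25A15, the ornithine carrier of the mitochondrial membrane, fell from 327 ± 22.9 to 220 ± 21.7 (-0.57 ± 0.08, adjusted p = 0.000106). ADAMTS1, a secreted protease that cleaves versican, had 4164, 3901, 4057, 3068 and 2980 in the controls and 2188, 2811, 2523, 2125 and 2662 in the no contact libraries. Its controls above 100 were lower than the other 3, its groups still did not overlap, and the difference was -0.56 ± 0.11 (adjusted p = 0.00413). SLC25A15 and ADAMTS1 kept the call in all 25 alternatives and TMEM107 in the 24 that tested it, since its mean was under the stricter filter of 50.

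The other 11 lower genes lost the call in 4 to 12 of the 25 alternatives. CEMIP, which breaks down hyaluronan, had 23287, 22302, 22134, 18104 and 17328 normalized counts in the control libraries and 16155, 17759, 10456, 12482 and 13919 in the no contact libraries. Control library BEEC.104 lay below no contact library 89, and the difference was -0.56 ± 0.13 (adjusted p = 0.0215). CDKN1A, the cell cycle inhibitor p21, fell from 6759 ± 268 to 5408 ± 472 (-0.33 ± 0.08), the desmosomal cadherin DSC2 from 1229 to 963 (-0.35 ± 0.08) and the pyruvate dehydrogenase kinase PDK2 from 542 to 444 (-0.29 ± 0.07). FITM2, which acts in lipid droplet formation, fell by 0.42 on this scale, and MACC1 from 211 ± 58.2 to 126 ± 17.6 (adjusted p = 0.0459). MRVI1, SUSD4, RAB7B and GIT2 fell by between 0.28 and 0.50. No contact library 90 had the lowest value of its group for CEMIP, CDKN1A, FITM2 and MACC1, among others. The count of lower genes was 3 without control library 83, 5 without no contact library 90, 6 without either control library 24 or 84 and 8 without no contact library 110.

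**Figure D4:**
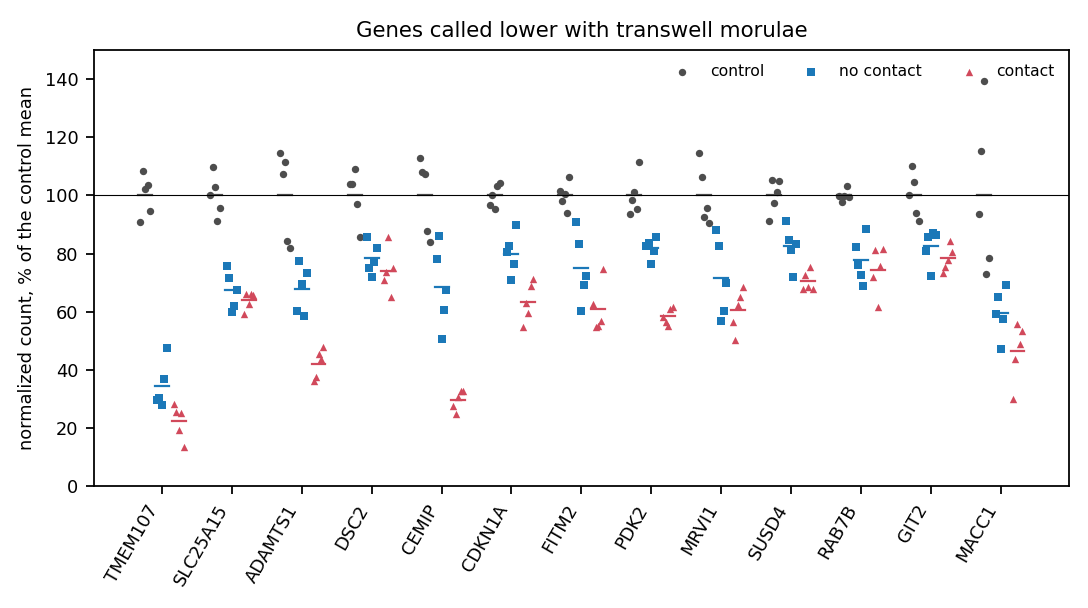
Normalized count as a percentage of the control mean (vertical axis) for 13 of the 14 genes called lower, 1 symbol per library, for control (circles), no contact (squares) and contact (triangles); short lines are group means, 5 libraries each. TMEM107 lies lowest, with a no contact mean of 30.2 normalized counts against 87.7 in the controls, and the no contact means of the other genes lie closer to the line at 100%.

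Set beside the libraries in which morulae lay on the cells, the transwell response differed in size from gene to gene. The direct difference, contact minus no contact, was higher for 469 of all genes tested, 3.73%, and lower for 229, 1.82%. It uses the same no contact libraries as the values above, and its lower count ran from 115 without contact library 97 to 349 without no contact library 109. For 62 of the 100 interferon system genes the contact level was higher, with a median difference of 0.62. MX2 differed most among the named genes. It had 3381, 2194, 1314, 836 and 670 normalized counts in contact libraries 28, 87, 97, 107 and 108, so that its no contact mean was 3.22% of its contact mean (4.89 ± 0.50, adjusted p = 2.102e-05). In MX1 the same share was 44.7% (1.16 ± 0.13) and in OAS1Y it was 69.3% (0.53 ± 0.08). IFIT2 and IFIT3, at 12.5% and 18.9%, were also far from their contact level, as were FOXS1 at 25.4%, ATP8B4, a membrane lipid transporter, at 23.2% and KIF5C, a motor protein, at 12.3%, which are in none of the lists. KIF5C was under 10 in every control and in no contact libraries 30 and 110, so it passed the filter only through the contact libraries. Its share is therefore in part set by the filter. IFIT2, IFIT3, ATP8B4 and KIF5C were named after their values were seen.

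Other genes differed little between the ways of culture. IRF9 had 2615 ± 343 without contact and 2864 with it, a difference of 0.14 with a 95% interval of -0.03 to 0.30 (adjusted p = 0.356). ISG12(B), a relative of IFI27, had 116 and 123 (0.08, -0.18 to 0.34), and PLSCR1, a phospholipid scramblase, had 24.2 and 24.9 (0.03, -0.38 to 0.43). In contrast, a gene named PLSCR2 but also described as phospholipid scramblase 1 had 2092 without contact and 2929 with it (0.48 ± 0.08, adjusted p = 0.000662). STAT2 was also higher with contact, by 0.60 ± 0.07. Of the genes lower with transwell morulae, CEMIP and ADAMTS1 were lower still with contact, by -1.19 ± 0.13 and -0.68 ± 0.11, and SLC25A15 differed by -0.07 (95% interval -0.24 to 0.11). TMEM107 had 30.2 without contact and 19.6 with it, and that difference was not called (adjusted p = 0.0658). It was called without no contact library 90 and without contact library 28, and its adjusted p ran from 0.0494 to 0.184 over the alternatives. Cell cycle genes, of which 0 were called with transwell morulae, were higher with contact than without for 21 of 34. In the same comparison 10 of 23 cholesterol synthesis genes were higher and 10 of 13 genes of the mitochondrial genome were lower. Of all genes tested, 3.73% were higher with contact than without and 1.82% were lower.

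Genes called higher often lay next to each other on the chromosome. Among called genes whose neighbour in the RefSeq order of assembly ARS-UCD2.0 was also tested, 50 of 134, 37.3%, had a neighbour that was called higher, against 194 of 10505, 1.85%, of all tested genes. This was looked at after the values were seen. The 28 pairs include relatives of 1 family, such as OAS1X and OAS1Y, IFIT2 and IFIT3, HERC5 and HERC6, and ERAP1 and ERAP2, and unlike genes that work together, such as PARP9 and DTX3L or RSAD2 and CMPK2. They also include neighbours of strong responders. TMPRSS2 lies next to MX1, and HES4, a transcriptional repressor, lies next to ISG15 and rested on 2 control reads against 41, a ratio of 20.4 with a 95% interval of 5.3 to 174. Both genes passed the filter only through libraries with embryos, so the filter in part sets this ratio. LIPA, a lysosomal lipase next to IFIT2, rose by 0.44 ± 0.08, KAT2A, a histone acetyltransferase next to DHX58, by 0.41 ± 0.07, and TBXAS1, the thromboxane synthase gene next to PARP12, by 2.41 ± 0.34. RNF31 lies next to IRF9. The strand setting of the counting is not given in the sources used here, so reads that run on from a gene into its neighbour cannot be told apart from the neighbour's own transcripts, and this was not tested.

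**Figure D5:**
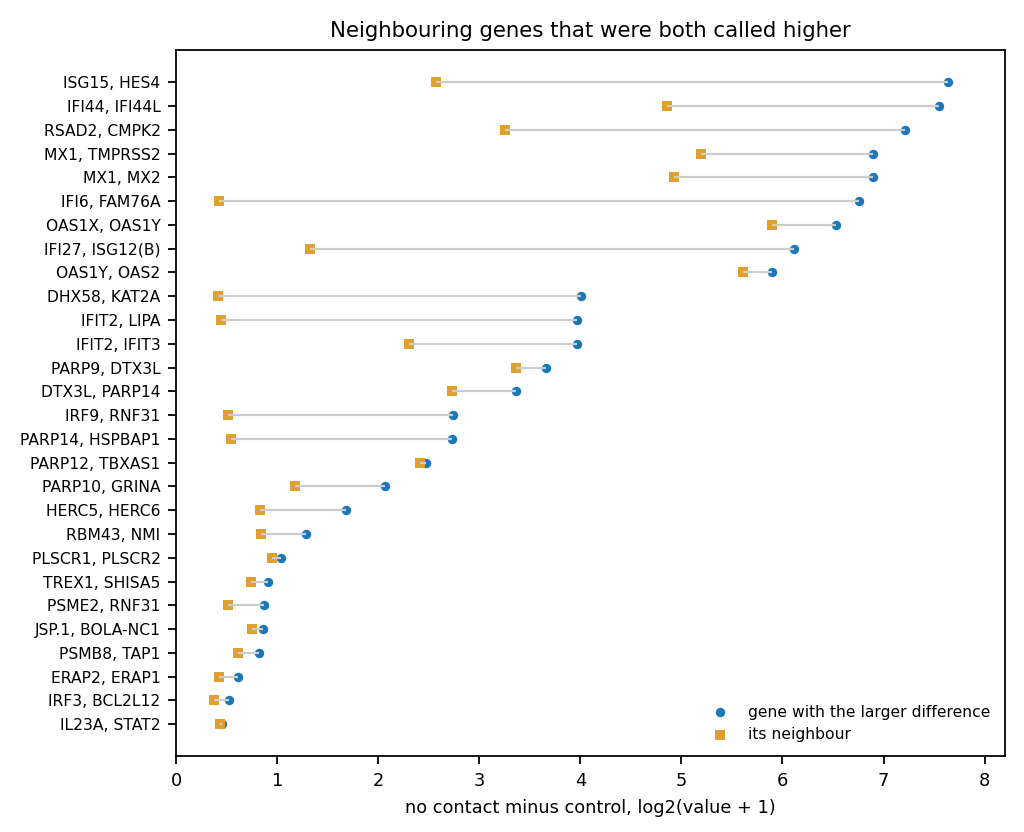
Difference between no contact and control (horizontal axis, log2 of normalized count + 1) for the 28 pairs of neighbouring genes that were both called higher, with the gene of larger difference as a circle and its neighbour as a square. The distance between the symbols is widest for IFI6 and FAM76A (6.76 and 0.43), while PARP12 and TBXAS1 lie close together (2.47 and 2.41).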

How the data were processed

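Poly-A RNA was sequenced in paired reads of 100 bases from libraries called strand-specific, per the labels' protocols. The values used are signal values, counts divided by a size factor per library, deposited by the authors in 1 table of 15 libraries. Dividing them by what 1 read is worth gave whole reads within 0.01 for 100% of values. The submitters' processing notes list, without saying what each did, DESeq2 1.18.1, featureCounts 1.6.2, HISAT2 2.1.0 and FastQC 0.71. The genome build, annotation and strand setting were not given in the sources used here. The deposited log2 fold changes, Wald scores and p-value columns were not used.

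Of 19994 genes, 16378 had a symbol in the deposited table and 877 took one from the RefSeq table of ARS-UCD2.0. Genes of at least 10 in at least 5 libraries were fitted with limma 3.58.1 (trend and robust empirical Bayes, R 4.3.3) on log2(value + 1), with 1 coefficient per group over all 15 libraries, Benjamini-Hochberg adjustment over all genes tested and a threshold of 0.05. The fit was also run on simulated counts that held no effect of library number run and no changed genes near 0. It was therefore not tested for those cases. A sum of markers is over normalized counts. Alternatives were pseudocounts of 0.5 and 5, other filters, TMM scaling, the 10 libraries alone, edgeR 4.0.16 and DESeq2 1.42.0 on the recovered reads, no robust option, library number run as a block, and leaving out each library. The runs are read from numbers in the titles, and what they stand for is not stated.

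The comparison, its members and the gene lists were chosen with earlier results of these data known. By rule the text names the 15 higher and up to 20 lower genes with the smallest p, up to 4 called members per list, up to 10 higher genes in no list and a panel of pathway genes; other genes named as examples, 51 of them with full statistics, were chosen after their values were seen. Limma, edgeR and DESeq2 p-values are adjusted throughout unless called unadjusted. Intervals are at 95%, and those of read ratios cover counting error only. Reads of close copies and of overlapping genes may be divided uncertainly. Genes under 10 in every control, such as MX2, IFI44, GBP4, PLAC8, KIF5C, TBXAS1, TMPRSS2 and HES4, passed the filter only through libraries with embryos. Their differences are therefore in part set by the filter. A search of promoters for a motif was not run. Some genes are not reported here.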

Additional observations from a re-analysis of the deposited data

Results flagged for a closer look

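Within 272 groups of 5 libraries searched, 11 had a library whose gap to its nearest neighbour was large against the range of the group (Dixon's 95% criterion). Chance gives about 1 in 20 groups, so 11 of 272 is no more than chance gives. Library BEEC.103 was the one apart in 3 and library 90 in 3. In no contact library 90, TRIM25 had 657 normalized counts against 1131 to 1358 in the other no contact libraries, IFNAR1 had 618.2 against 953.4 to 1093, and IL23A had 337.1 against 231.0 to 248.4. RNF31 had 1137 in no contact library 89 against 933.6 to 979.3.

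Among the controls, library BEEC.103 had 37.58 for OAS1X against 51.31 to 56.01 and 1361 for XRN2 against 1466 to 1503. It also held the only TMPRSS2 value above 0, at 0.7829. Control library BEEC.104 had 71.37 for IFI44L against 56.37 to 58.63, and control library 83 had 19.37 for TNFSF10 against 27.4 to 29.81. PTGS2 stood apart in the run 24 to 30 of both groups, with 789.9 in control library 24 against 1260 to 1381 and 609.6 in no contact library 30 against 1123 to 1369. The part of a run or a library in these values was not tested.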

How the results depend on the processing

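The count of higher genes stayed between 162 and 187 when any library was left out and was 188 by edgeR, 213 by DESeq2 and 244 with the library number run as a block; the interferon system count ran between 63 and 66 with a library left out, and antigen presentation from 12 to 14. The count of lower genes was less stable. It was 33 by DESeq2, 52 with the block, and 3 to 19 with a library left out. Of the 127 called genes with full statistics, 107 kept the call in every alternative run. No paired analysis was possible because the groups share no replicate numbers in the labels; the block by run stands in for it.

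For contact minus no contact, higher genes ranged from 325 to 561 and interferon system genes from 57 to 64 with a library left out, and lower genes from 115 to 349, with 344 under the block. Small differences that were never called changed sign. With a library left out, JAK1 ran from -0.0952 to 0.0406, STAT3 from -0.0597 to 0.0494 and ESR1 from -0.190 to 0.0875, each with its highest value without no contact library 90. PTGS2 ran from -0.318 to 0.0288, the latter without no contact library 30. PTGES ran from -0.211 to 0.124 and IFNT from -0.193 to 0.274, and IFNT was at -0.0206 by edgeR. The cause was not tested.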
